A study of Mus musculus with 10 samples.

Results

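A set of 8 cytokine genes linked to psoriasis was followed across cultured mouse keratinocytes: Tnf, Il23a, Il6, Il17c, Il19, Il20, Il24 and Tslp. They were chosen by name, as the rows of the deposited expression table whose Ensembl identifiers carry these symbols in the GRCm38 annotation. All 8 were found among the 37991 identifiers of the table, and each is annotated as a protein-coding gene. Of the 8, Tnf, Il23a, Il24 and Tslp reached a mean of 1 FPKM (fragments per kilobase of transcript, scaled to the size of the library) over the 10 libraries and entered the tests across genes. The other 4 lay under that level and are described by library.

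The study asked how loss of signalling through BCL10 alters keratinocytes and their response to interleukin-17A (IL-17A). BCL10 is an adaptor that links CARD-family proteins to the protease MALT1 upstream of NF-kB. Keratinocytes, the main cells of the epidermis, were cultured from the skin of mice at postnatal day 4 to 5, on collagen in serum-free medium with 0.05 mM calcium chloride. The mice carried the allele Bcl10tm1Mak, either on both copies (Bcl10-/-, called knockout here) or on 1 copy (Bcl10+/-, littermate controls, called heterozygous), so that the controls also lack 1 normal copy of Bcl10. The sources used here do not say which part of the gene the allele removes. Cells of each genotype were unstimulated or received 200 ng/mL of recombinant mouse IL-17A for 5 h. There were 2 libraries for each of the 2 knockout groups and 3 for each of the 2 heterozygous groups. A replicate number within a genotype joins 1 unstimulated and 1 IL-17A library, and each such pair is called a culture. The labels do not say whether cultures came from separate mice, so p-values measure only the spread between these libraries.

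TNF is made as a membrane-bound trimer, is shed by the protease ADAM17 and acts through the receptors TNFR1 and TNFR2 to switch on NF-kB. IL-23 is a pair of the p19 chain, encoded by Il23a, and the p40 chain, encoded by Il12b, and it sustains T cells that make IL-17; both TNF and IL-23 are targets of psoriasis drugs. IL-19, IL-20 and IL-24 are cytokines of the IL-10 family that signal to keratinocytes through receptors containing IL-20RB and activate STAT3. IL-6 also signals through STAT3, by way of gp130. IL-17C is a keratinocyte product that acts back on keratinocytes through IL-17RE, and TSLP is an epidermal alarm cytokine best known in allergic skin disease.

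Sequences are shown for Tnf and Il23a because the differences between libraries described below lie in these genes. The first line gives the 250 bases before the annotated start of Tnf (chr17:35202008-35202257, minus strand, RefSeq on GRCm38.p6). Capitals mark the match to the NF-kB motif GGGNNNNNCC, which begins 194 bases before the start.
Tnf upstream: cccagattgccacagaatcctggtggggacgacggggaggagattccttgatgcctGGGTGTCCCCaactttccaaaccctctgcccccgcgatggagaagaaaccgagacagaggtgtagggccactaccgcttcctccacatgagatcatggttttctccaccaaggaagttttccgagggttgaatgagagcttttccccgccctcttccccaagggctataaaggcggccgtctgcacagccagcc
RefSeq promoter windows of 300 bases were matched for 5 of the 8 genes: Tnf, Il6, Il17c, Il19 and Il20. Each of the 5 windows held at least 1 match to the NF-kB motif on either strand, a motif found in 50.8% of all 32851 windows. The AP-1 motif TGANTCA was matched only in the Il6 window (7.81% of all windows hold it) and the STAT motif TTCNNNGAA only in the Il19 window (8.30% of all windows). Such matches describe the letters of these windows and are not binding sites.

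The next lines show AU-rich stretches of the 3′ untranslated regions of Tnf (chr17:35199680-35199709, minus strand) and Il23a (chr10:128296184-128296213, minus strand), from GRCm38 and GENCODE M21 transcripts. Capitals mark the nonamer TTATTTATT, or a run of overlapping copies of it; such elements are known to recruit proteins that shorten the life of cytokine mRNAs.
Tnf site: taTTATTTATTATTTATTTATTATTTATTt
Il23a site: atagatgatggTTATTTATTctatttataa
The Tnf region of 764 bases held 5 copies of the nonamer, 4 of them in the 30 bases shown, and the Il23a region of 657 bases held 1. None of the other 6 genes held a copy of the nonamer in the transcript examined. Among genes with regions of like length, 3.98% of 2363 (for Tnf) and 3.58% of 2288 (for Il23a) held at least 1 copy of it. The shorter run ATTTA, contained in the nonamer, was not confined to these genes. It occurred 8 times in Tnf, 6 in Il23a, 10 in Il6, 5 in Il20, 4 in Il24, 2 in Tslp, 1 in Il19 and 0 in Il17c.

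The depth of each library, estimated from the steps between low FPKM values, was 15.9 to 50.8 M fragments (M, mega), and 11889 to 12092 genes reached 1 FPKM. The targeted gene was read first as a check of the labels. Bcl10 stood at 0.969, 16.4, 16.998 and 16.6 FPKM in the knockout libraries (culture 1 unstimulated and IL-17A, then culture 2 in that order), at 18.04 and 16.3 FPKM in heterozygous culture 1, and at 67.0, 72.3, 59.5 and 60.6 FPKM in heterozygous cultures 2 and 3. Heterozygous culture 1 thus carried Bcl10 at the level of the knockout libraries and goes against its label by this measure; which part of the gene the remaining fragments cover was not tested. The low value in the unstimulated library of knockout culture 1 stood apart from its IL-17A partner, and in that library the 10 most abundant genes took 12.6% of the summed FPKM, against 8.21 to 8.66% in the others. The library numbers in the titles run from 1 to 14 in both knockout cultures and heterozygous culture 1, and from 33 to 38 in heterozygous cultures 2 and 3. What these numbers mean is not given. Genotype results are therefore given with all 10 libraries, without heterozygous culture 1, and within the library numbers 1 to 14.

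By level, Il24 came first of the 8 genes in every group. Its group means were 43.9 ± 4.51 FPKM in unstimulated knockout libraries (SD, n = 2) and 47.4 ± 11.2 FPKM in unstimulated heterozygous libraries (SD, n = 3). Tslp followed at 21.4 ± 5.22 and 22.5 ± 4.79 FPKM. In unstimulated knockout libraries Tnf (4.35 ± 0.0719 FPKM) and Il23a (3.37 ± 0.232 FPKM) came next, well under Tslp. In unstimulated heterozygous libraries Tnf stood at 15.4 ± 9.96 FPKM and Il23a at 12.3 ± 7.75 FPKM, SD that carry the gap between culture 1 and cultures 2 and 3. Within libraries, Tnf was above Il23a in cultures 1, 2 and 3 (3.94 against 3.58, 21.9 against 14.7 and 20.4 against 18.5 FPKM). Tnf was above Tslp in culture 2 (21.9 against 17.5 FPKM) and below it in cultures 1 and 3. Il19, Il17c, Il6 and Il20 stayed under 0.3 FPKM in every library.

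**Figure D1:**
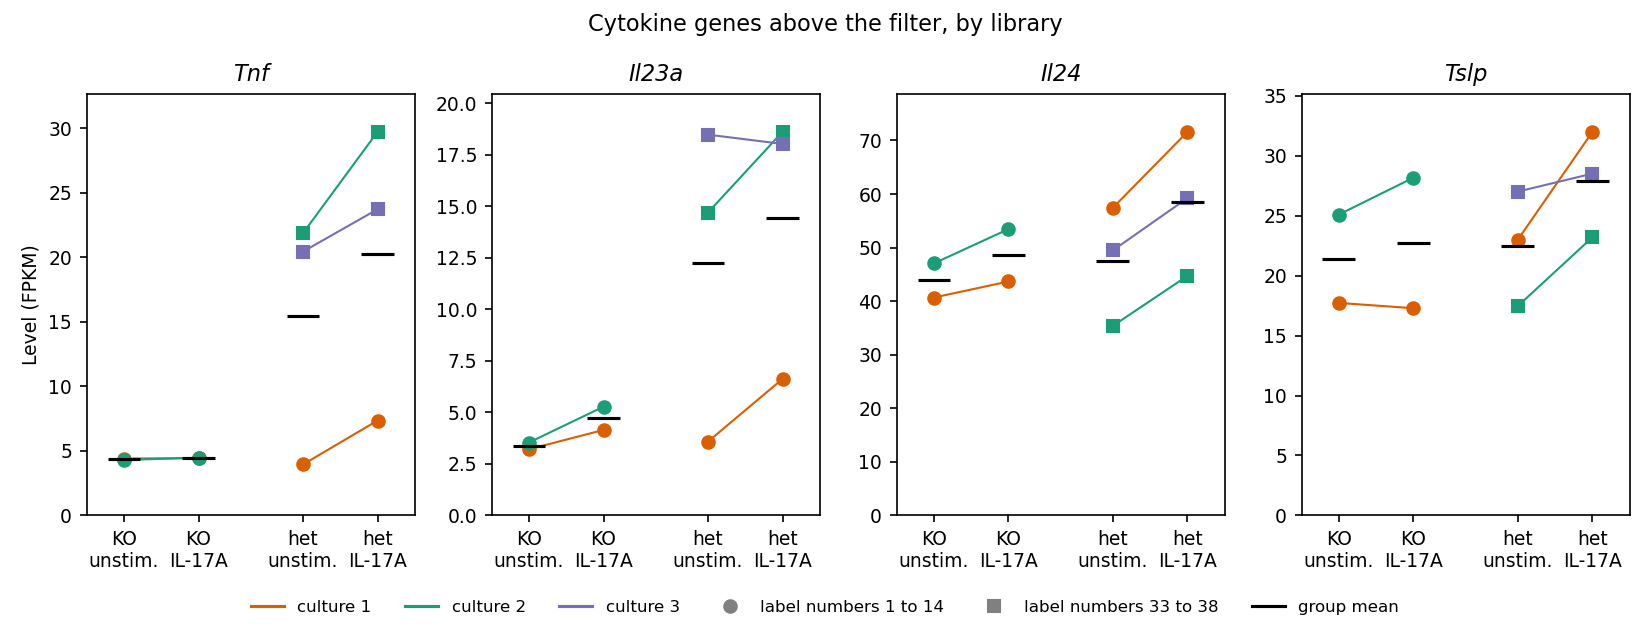
Levels of Tnf, Il23a, Il24 and Tslp in FPKM (vertical axis, from 0) by labelled group (KO, knockout; het, heterozygous). Each point is a library, lines join the 2 libraries of a culture, circles are library numbers 1 to 14, squares 33 to 38, and bars are group means; for Tnf the squares lie between 20.4 and 29.7 FPKM and the circles between 3.94 and 7.35 FPKM.

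Tnf (ENSMUSG00000024401, chr17:35199381-35202007, minus strand, GRCm38) had the largest fold range over the 10 libraries of the 4 members that were tested. Its unstimulated and IL-17A levels were 4.40 and 4.45 FPKM in knockout culture 1 and 4.30 and 4.46 FPKM in knockout culture 2. In heterozygous culture 1 they were 3.94 and 7.35 FPKM, in culture 2 21.9 and 29.7 FPKM, and in culture 3 20.4 and 23.7 FPKM. The 4 knockout libraries lay within a narrow band, and all 4 libraries of heterozygous cultures 2 and 3 lay above it. The labelled genotypes overlapped only through heterozygous culture 1, whose unstimulated library was the lowest of all 10 and whose IL-17A library lay between the other heterozygous libraries and the knockout libraries. The mean of heterozygous cultures 2 and 3 was 4.86 times the knockout mean without stimulation (21.2 ± 1.01 against 4.35 ± 0.0719 FPKM, SD, n = 2 each) and 6.0 times with IL-17A (26.7 ± 4.24 against 4.45 ± 0.0138 FPKM). In bulk RNA, fewer cells that make a transcript and less of it per cell cannot be told apart.

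Il23a (ENSMUSG00000025383, chr10:128296139-128298752, minus strand) was arranged in the same way. Unstimulated and IL-17A levels were 3.21 and 4.15 FPKM in knockout culture 1 and 3.54 and 5.27 FPKM in knockout culture 2. They were 3.58 and 6.62 FPKM in heterozygous culture 1, 14.7 and 18.6 FPKM in culture 2 and 18.5 and 18.03 FPKM in culture 3. Again the 4 libraries of heterozygous cultures 2 and 3 were the highest, and heterozygous culture 1 lay with the knockout libraries when unstimulated and somewhat above them with IL-17A. Heterozygous cultures 2 and 3 had 4.92 times the knockout mean without stimulation and 3.89 times with IL-17A. The p40 chain with which p19 forms IL-23, Il12b, was listed at 0 in all 10 libraries, as was the IL-12 partner chain Il12a.

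Il24 (ENSMUSG00000026420, chr1:130882074-130887454, minus strand) showed no such division. Its unstimulated and IL-17A levels were 40.7 and 43.7 FPKM in knockout culture 1 and 47.1 and 53.5 FPKM in knockout culture 2. They were 57.4 and 71.6 FPKM in heterozygous culture 1, 35.4 and 44.7 FPKM in culture 2 and 49.5 and 59.2 FPKM in culture 3. The genotypes overlapped throughout: heterozygous culture 2 lay among the lowest libraries and heterozygous culture 1 held the highest.

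Tslp (ENSMUSG00000024379, chr18:32815383-32819797, plus strand) overlapped in the same manner. Its unstimulated and IL-17A levels were 17.7 and 17.3 FPKM in knockout culture 1 and 25.1 and 28.2 FPKM in knockout culture 2. They were 23.0 and 32 FPKM in heterozygous culture 1, 17.5 and 23.2 FPKM in culture 2 and 27.0 and 28.5 FPKM in culture 3. Cultures of the same genotype differed from each other by more than the genotype means did. The gene overlaps the antisense RNA gene 4930455D15Rik, and because the strand setting of the counting is not given, reads of the pair cannot be told apart.

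The IL-10 family gene Il19 (ENSMUSG00000016524, chr1:130932656-130940115, minus strand) was at the edge of detection. Without stimulation it was listed at 0 and 0.215 FPKM in the knockout cultures and at 0.258, 0.266 and 0.225 FPKM in the heterozygous cultures. With IL-17A it was listed at 0.164 and 0.116 FPKM in the knockout cultures and at 0.117, 0.156 and 0 FPKM in the heterozygous cultures. For its length, 3 fragments correspond to 0.0514 to 0.164 FPKM at the estimated depths, so these values rest on few fragments, at most about 9.57. Il19 was lower with IL-17A in 4 of 5 cultures and higher in 1, with a mean difference of -0.10 in log2(FPKM + 1) and p = 0.312 (exact two-sided sign-flip permutation test, n = 5 cultures, smallest possible p 0.0625). Its neighbour Il20 (ENSMUSG00000026416, chr1:130906985-130911451, minus strand), which lies between Il24 and Il19 on chromosome 1, was listed at 0 in all 10 libraries, and 3 fragments would have given it 0.0498 to 0.159 FPKM. Within this cluster of 3 related genes only Il24 was thus well above that level in these cells.

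Il17c (ENSMUSG00000046108, chr8:122422020-122423639, plus strand) was listed at 0 in both unstimulated knockout libraries and at 0, 0.0792 and 0.0192 FPKM in the unstimulated heterozygous libraries. With IL-17A it was listed at 0.00549 and 0.174 FPKM in the knockout cultures and at 0.264, 0.159 and 0 FPKM in the heterozygous cultures. The highest of these values corresponds to about 3.02 fragments, so no library held Il17c clearly above the level of 3 fragments, which is 0.0821 to 0.262 FPKM. Il17c overlaps the gene model Gm20388 on the same strand, so its reads could also be shared. It was higher with IL-17A in 4 of 5 cultures, with a mean difference of 0.13 in log2(FPKM + 1) and p = 0.188 (exact two-sided sign-flip permutation test).

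Il6 (ENSMUSG00000025746, chr5:30013114-30019981, plus strand) was listed at 0 in 9 of 10 libraries and at 0.0850 FPKM, about 4.52 fragments, in the unstimulated library of knockout culture 2. Neither genotype nor IL-17A gave a level of Il6 that could be compared at this depth. Without any filter on low values, limma called none of Il6, Il17c and Il19 in any comparison, and in the response averaged over cultures each had an adjusted p of 0.900.

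**Figure D2:**
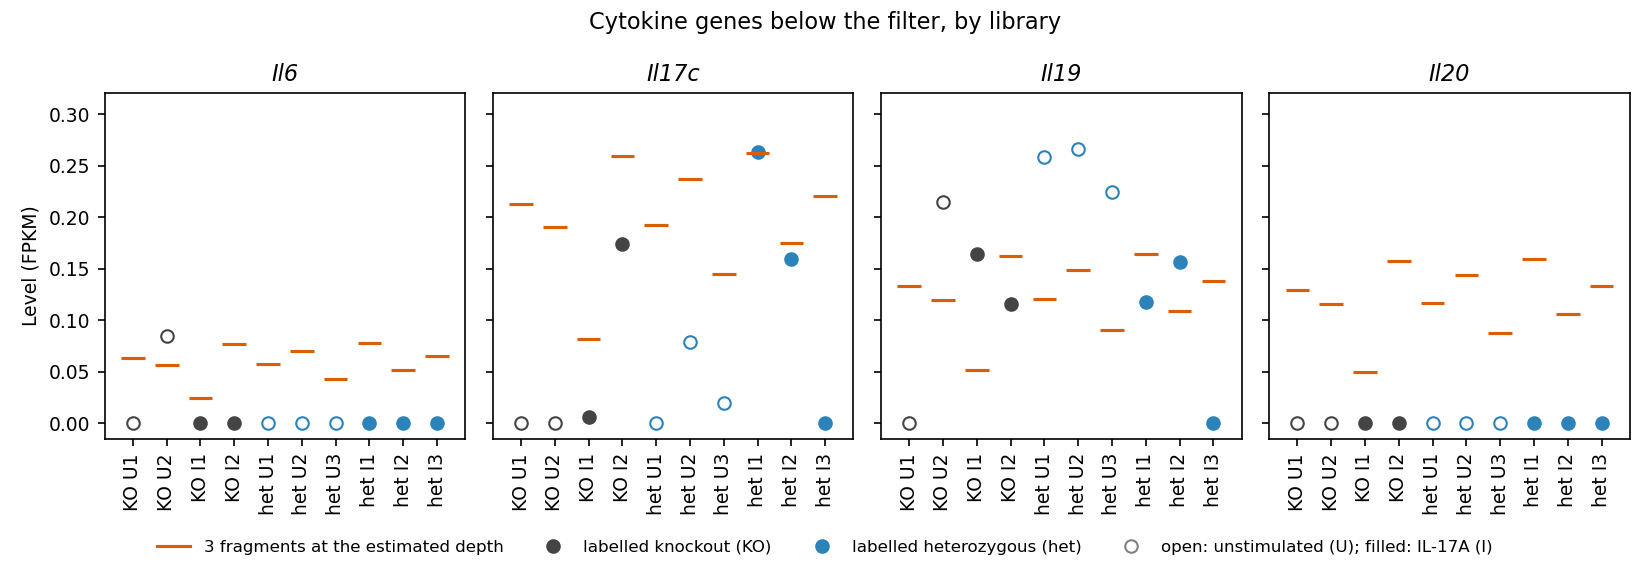
Levels of Il6, Il17c, Il19 and Il20 in FPKM (vertical axis, from 0) in each library (U, unstimulated, open points; I, IL-17A, filled points), with orange bars at the FPKM that 3 fragments give at each library's estimated depth. Il20 lies at 0 throughout, and only 1 point of Il6 lies above 0.

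The first comparison asked whether the genotypes differed. Differences are on the scale log2(FPKM + 1), knockout minus heterozygous, from limma with Benjamini-Hochberg adjustment over 12054 genes. With all 10 libraries, none of the 4 tested members passed the threshold of 0.05 without stimulation. The difference was -1.33 for Tnf (SE 0.70, adjusted p = 0.728), -1.36 for Il23a (SE 0.60, adjusted p = 0.728), -0.09 for Il24 (SE 0.24, adjusted p = 0.894) and -0.07 for Tslp (SE 0.26, adjusted p = 0.924). Of all genes tested 0% were called, none of the 4 members had an unadjusted p under 0.05, and 562 of the 12054 genes did. With IL-17A the difference was -1.76 for Tnf (SE 0.70, adjusted p = 0.507), -1.32 for Il23a (SE 0.60, adjusted p = 0.507), -0.25 for Il24 (SE 0.24, adjusted p = 0.598) and -0.31 for Tslp (SE 0.26, adjusted p = 0.551). Again no member was called by limma, and 0.0249% of all genes were. Of the 4 members 1, Tnf, had an unadjusted p under 0.05, as had 981 of the 12054 genes. The large SE of Tnf and Il23a came with the distance between heterozygous culture 1 and the other 2 heterozygous cultures.

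Without both libraries of heterozygous culture 1, 2 of the 4 members, Tnf and Il23a, were lower in the knockout libraries. Unstimulated, Tnf differed by -2.05 (SE 0.12, adjusted p = 0.00126) and Il23a by -2.001 (SE 0.14, adjusted p = 0.00268), and by unadjusted p they stood at ranks 5 and 9 of 12054 genes. With IL-17A, Tnf differed by -2.34 (SE 0.12, adjusted p = 0.00126), rank 1 of all genes, and Il23a by -1.77 (SE 0.14, adjusted p = 0.00502), rank 12. Il24 and Tslp did not pass: unstimulated they differed by 0.06 (SE 0.21, adjusted p = 0.859) and -0.04 (SE 0.29, adjusted p = 0.938), and with IL-17A by -0.09 (SE 0.21, adjusted p = 0.774) and -0.21 (SE 0.29, adjusted p = 0.625). Among all genes limma called 1.05% unstimulated (0.664% lower in knockout) and 6.7% with IL-17A (2.87% lower in knockout). The spread in this fit treated the 2 libraries of a culture as independent, and no genotype fit with culture as a block was run without heterozygous culture 1. In this comparison every knockout library has a number from 1 to 14 and every heterozygous library one from 33 to 38, so genotype and library number cannot be told apart. Leaving out knockout culture 1 as well, a choice made after seeing the data, left 1 knockout library per condition, so only differences are given. Tnf then differed by -2.06 unstimulated and -2.33 with IL-17A, and Il23a by -1.95 and -1.62.

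Within the library numbers 1 to 14, 2 knockout cultures meet heterozygous culture 1. That leaves 1 heterozygous library per condition, so only differences are given. Tnf differed by 0.11 unstimulated and by -0.61 with IL-17A. Il23a differed by -0.07 unstimulated and by -0.42 with IL-17A. The difference seen for both genes against heterozygous cultures 2 and 3 was thus not found unstimulated within this number range, and there the heterozygous arm is 1 culture whose Bcl10 level matched that of the knockout. By library number alone, the median of Tnf was 22.8 FPKM (20.4 to 29.7, n = 4) for numbers 33 to 38 and 4.42 FPKM (3.94 to 7.35, n = 6) for numbers 1 to 14. For Il23a these medians were 18.3 FPKM (14.7 to 18.6) and 3.86 FPKM (3.21 to 6.62). The ranges did not overlap for either gene.

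**Figure D3:**
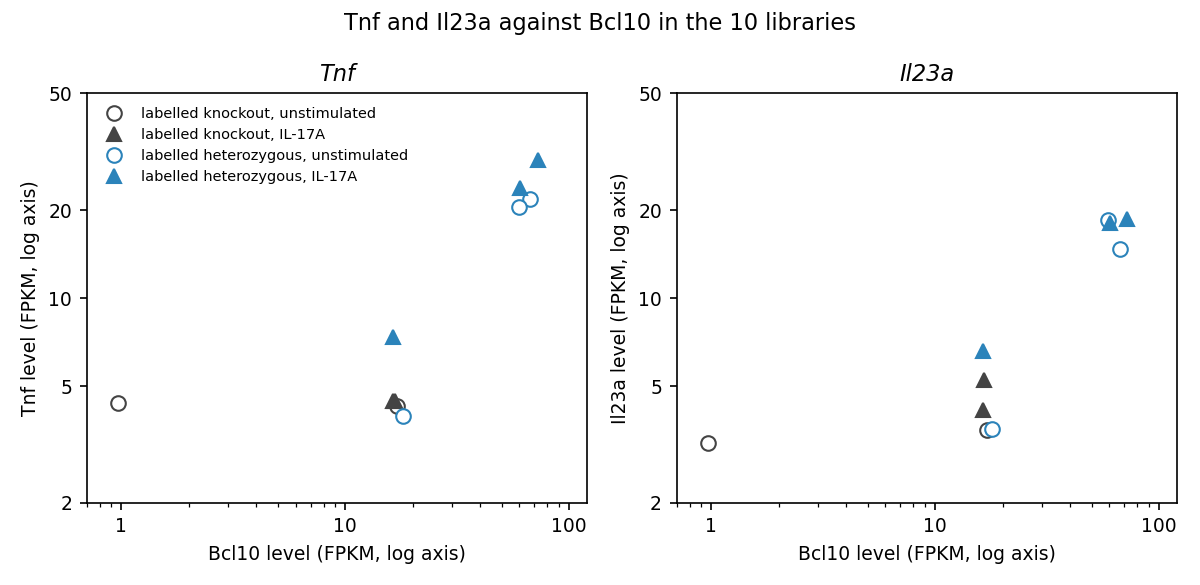
Tnf (left) and Il23a (right) against Bcl10 in the 10 libraries, all in FPKM on log axes; open circles are unstimulated, triangles IL-17A, dark knockout, blue heterozygous. The 4 libraries of heterozygous cultures 2 and 3 lie at 59.5 to 72.3 FPKM of Bcl10, apart from the other 6, and heterozygous culture 1 lies beside the knockout libraries.

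Some genes listed as markers of other cells moved with the library numbers as well. The 5 melanocyte genes (Mlana, Pmel, Dct, Tyrp1, Tyr) summed to 168 to 196 FPKM in numbers 1 to 14 and to 315 to 406 FPKM in numbers 33 to 38. Without heterozygous culture 1, Pmel was lower in knockout libraries in both conditions (-0.83, limma adjusted p = 0.0473, and -0.90, adjusted p = 0.0260), as were Dct (-1.10, adjusted p = 0.0475) and Mlana (-1.44, adjusted p = 0.0404) with IL-17A. The list for Langerhans cells, macrophages and dendritic cells summed to 279 to 461 against 657 to 793 FPKM, carried by Epcam (269 to 453 against 650 to 788 FPKM), which was also lower in knockout libraries in that fit (-0.90 and -0.93), while 6 of its 10 genes (Adgre1, Cd207, Fcer1g, H2-Aa, Itgax and Lyz2) were listed at 0 in every library. The T cell genes Ptprc, Cd3d, Cd3e and Cd3g, and the mast cell genes Cpa3, Fcer1a and Mcpt4, were also at 0 in every library. The fibroblast list summed to 0.210 to 28.7 FPKM in numbers 1 to 14 and to 0.159 to 0.194 FPKM in numbers 33 to 38. Not all libraries of numbers 1 to 14 were thus high for it. Keratinocyte markers summed to 10854 to 12206 and 8568 to 10064 FPKM, and without heterozygous culture 1 the integrin gene Itgb4 was higher in knockout libraries with IL-17A (1.01, limma adjusted p = 0.0358). In the fits without heterozygous culture 1, genotype and library number cannot be told apart for these genes either. Which cells carried Epcam was not tested, nor was the part of melanocytes in the levels of Tnf and Il23a.

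The second comparison asked how the genes respond to IL-17A. Tnf was higher with IL-17A in 5 of 5 cultures, at 1.01 and 1.04 times the unstimulated level in knockout cultures 1 and 2 and at 1.86, 1.36 and 1.16 times in heterozygous cultures 1, 2 and 3. Il24 was also higher in 5 of 5, at 1.07, 1.14, 1.25, 1.26 and 1.197 times in the same order. Il23a was at 1.29, 1.49, 1.85, 1.27 and 0.976 times and Tslp at 0.975, 1.12, 1.39, 1.33 and 1.06 times, each higher in 4 of 5. These were small differences: only Tnf and Il23a in heterozygous culture 1 came near a doubling.

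Averaged over the 5 cultures, none of the 4 members passed limma's threshold. The IL-17A difference in log2(FPKM + 1) was 0.29 for Tnf (SE 0.11, adjusted p = 0.7998), 0.36 for Il23a (SE 0.10, adjusted p = 0.638), 0.24 for Il24 (SE 0.04, adjusted p = 0.268) and 0.21 for Tslp (SE 0.08, adjusted p = 0.784). All 4 had an unadjusted p under 0.05, as had 727 of the 12054 genes, and 0.149% of all genes were called. Taken alone, each with the exact two-sided sign-flip permutation test over 5 cultures, Tnf and Il24 reached p = 0.0625, the smallest value possible, and Il23a and Tslp p = 0.125. Without heterozygous culture 1 the averaged difference of Tnf was 0.17 (limma adjusted p = 0.783), against 0.29 with it.

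By genotype no member was called either. In the heterozygous libraries the IL-17A difference was 0.46 for Tnf (SE 0.63), 0.34 for Il23a (SE 0.54), 0.30 for Il24 (SE 0.21) and 0.31 for Tslp (SE 0.23), with limma adjusted p = 1 for each, against 0.0083% of all genes called. In the knockout libraries it was 0.03 for Tnf (SE 0.77), 0.38 for Il23a (SE 0.66), 0.14 for Il24 (SE 0.26) and 0.06 for Tslp (SE 0.28), again with adjusted p = 1, against 0.0249% of all genes called. In this fit no member had an unadjusted p under 0.05 in either genotype. With culture as a replicate block the SE of Tnf was 0.11 in heterozygous and 0.13 in knockout libraries, and limma called 0 genes in either genotype. In heterozygous libraries 3 of the 4 members then had an unadjusted p under 0.05, as had 835 of all 12054 genes. In knockout libraries 1 of the 4 members did, as did 607 of all genes. The difference between genotypes in the response, knockout minus heterozygous, was -0.43 for Tnf (SE 0.99), 0.04 for Il23a (SE 0.85), -0.16 for Il24 (SE 0.34) and -0.25 for Tslp (SE 0.36), each with a limma adjusted p of 1.00. Of all genes 0% were called for this difference, 143 of 12054 had an unadjusted p under 0.05, and none of the 4 members did. With culture as a replicate block the SE was 0.17 for Tnf and 0.23 for Il23a, limma again called 0 genes (adjusted p = 0.779 for Tnf and 0.967 for Il23a), and 1 of the 4 members and 624 of all genes had an unadjusted p under 0.05.

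**Figure D4:**
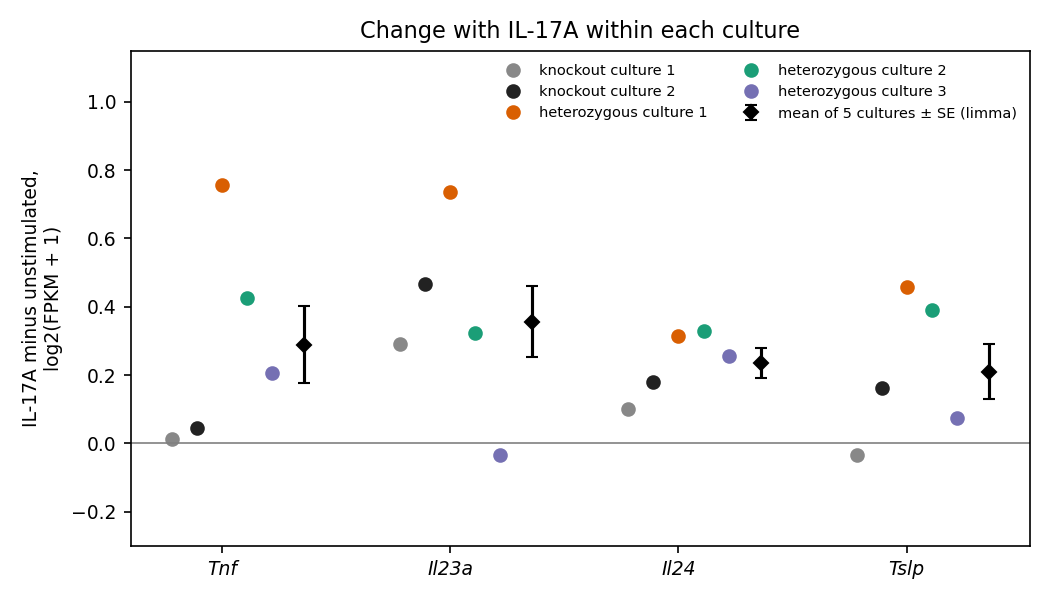
Difference between the IL-17A and the unstimulated library of each culture, in log2(FPKM + 1) (vertical axis), for Tnf, Il23a, Il24 and Tslp; coloured points are the 5 cultures and diamonds the limma mean ± SE. Tnf and Il24 lie above 0 in all 5 cultures, and Il23a and Tslp in 4.

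Among the receptors and partner chains of these cytokines, 7 of 15 genes could be tested. Tnfrsf1a, encoding the TNF receptor TNFR1, stood at 17.9 to 22.7 FPKM in library numbers 1 to 14 and 12.7 to 21.7 FPKM in numbers 33 to 38, whereas Tnfrsf1b, encoding TNFR2, did not exceed 0.338 FPKM. Il6st, encoding gp130, was at 20.8 to 24.1 and 20.5 to 25.5 FPKM, Crlf2, encoding the TSLP receptor chain, at 6.83 to 11.8 and 5.92 to 8.30 FPKM, and Il17re at 7.43 to 10.3 and 5.44 to 8.23 FPKM. Il7r, the other chain of the TSLP receptor, and Il20ra were listed at 0 in every library, and Il20rb did not exceed 0.600 FPKM. None of the 7 changed with IL-17A on average; the smallest p belonged to Tnfrsf1a (-0.17, limma adjusted p = 0.781), Il6st (0.10, adjusted p = 0.784) and Crlf2 (0.18, adjusted p = 0.932). Without heterozygous culture 1, 1 of the 7 passed between genotypes, where genotype and library number cannot be told apart. Il6ra, the IL-6 receptor chain, was higher in knockout libraries by 0.85 with IL-17A (limma adjusted p = 0.0437), as were 462 of all 12054 genes. The Il6ra difference was 0.76 unstimulated (adjusted p = 0.0966). Its level was 2.34 to 2.90 FPKM in numbers 1 to 14 and 0.783 to 1.40 FPKM in numbers 33 to 38.

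The 5 genes for TNF release were all tested, and none was called in any comparison. Adam17, encoding the TNF sheddase, was at 12.4 to 14.3 FPKM in numbers 1 to 14 and 10.1 to 12.7 FPKM in numbers 33 to 38. With IL-17A on average, Timp3, an inhibitor of ADAM17, differed by -0.26 (limma adjusted p = 0.398), and Rhbdf1 and Adam17 by 0.08 and -0.03 (adjusted p = 0.959 for both).

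Of 10 factors that control decay or stability of cytokine mRNAs, 1 changed with IL-17A on average: Zc3h12a, encoding the RNase Regnase-1, rose by 1.33 (SE 0.11, limma adjusted p = 0.0134), where 0.149% of all genes were called. It no longer passed without heterozygous culture 1 (1.25, adjusted p = 0.0527). Its level ran from 6.06 to 21.4 FPKM in numbers 1 to 14 and from 9.95 to 28.0 FPKM in numbers 33 to 38. None of the 10 differed between genotypes with all libraries. Without heterozygous culture 1 and with IL-17A, 2 of the 10 were higher in knockout libraries, where 462 of all 12054 genes were. They were Khsrp (1.03, limma adjusted p = 0.0335) and Zfp36l2 (0.71, adjusted p = 0.0272). Unstimulated, none of the 10 was called in that fit, and genotype and library number cannot be told apart in it. Both genes encode proteins that bind AU-rich elements, and their part in the levels of Tnf and Il23a was not tested.

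Of 14 genes that TNF switches on through NF-kB, 11 were tested. With all 10 libraries limma called none of them between genotypes, although all 11 lay under 0, with a median of -0.58 unstimulated and -0.72 with IL-17A (median of all genes -0.01 in both). Without heterozygous culture 1, 7 of 11 were lower in unstimulated knockout libraries, where 0.664% of all genes were, and none was higher, with a median of -0.87 against -0.02 for all genes; genotype and library number cannot be told apart here either. Cxcl2, a neutrophil chemokine, differed by -3.08 (adjusted p = 0.0115), Ccl20, which attracts IL-17-producing T cells, by -1.57 (adjusted p = 0.0430), and Cxcl1 by -1.42 (adjusted p = 0.0187). The NF-kB inhibitors Tnfaip3, encoding A20, and Nfkbia differed by -1.32 and -0.87 (adjusted p = 0.0261 for both), Relb by -0.82 (adjusted p = 0.0268) and the adhesion molecule Icam1 by -0.79 (adjusted p = 0.0261). Relative to library numbers, Cxcl2 was at 5.90 to 20.2 FPKM in numbers 1 to 14 and at 70.6 to 193 FPKM in numbers 33 to 38, and Tnfaip3 at 2.28 to 6.89 and 9.27 to 12.2 FPKM.

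With IL-17A and without heterozygous culture 1, 10 of the 11 NF-kB targets were lower in knockout libraries, where 2.87% of all genes were, with a median of -0.94 against -0.02 for all genes. The 7 above were among them, from Cxcl2 at -3.51 (limma adjusted p = 0.00584) to Relb at -0.72 (adjusted p = 0.0272). The others were Birc3, encoding the apoptosis inhibitor cIAP2 (-0.94, adjusted p = 0.0310), Nfkb2 (-0.68, adjusted p = 0.0404) and Tnip1, which works with A20 (-0.60, adjusted p = 0.0306). Tnfaip2 was the exception (-0.52, adjusted p = 0.217). With IL-17A on average none of the 11 was called (median 0.10): Cxcl1 differed by 0.98 (adjusted p = 0.160), Cxcl2 by 0.87 (adjusted p = 0.337) and Nfkbia by 0.20 (adjusted p = 0.629).

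**Figure D5:**
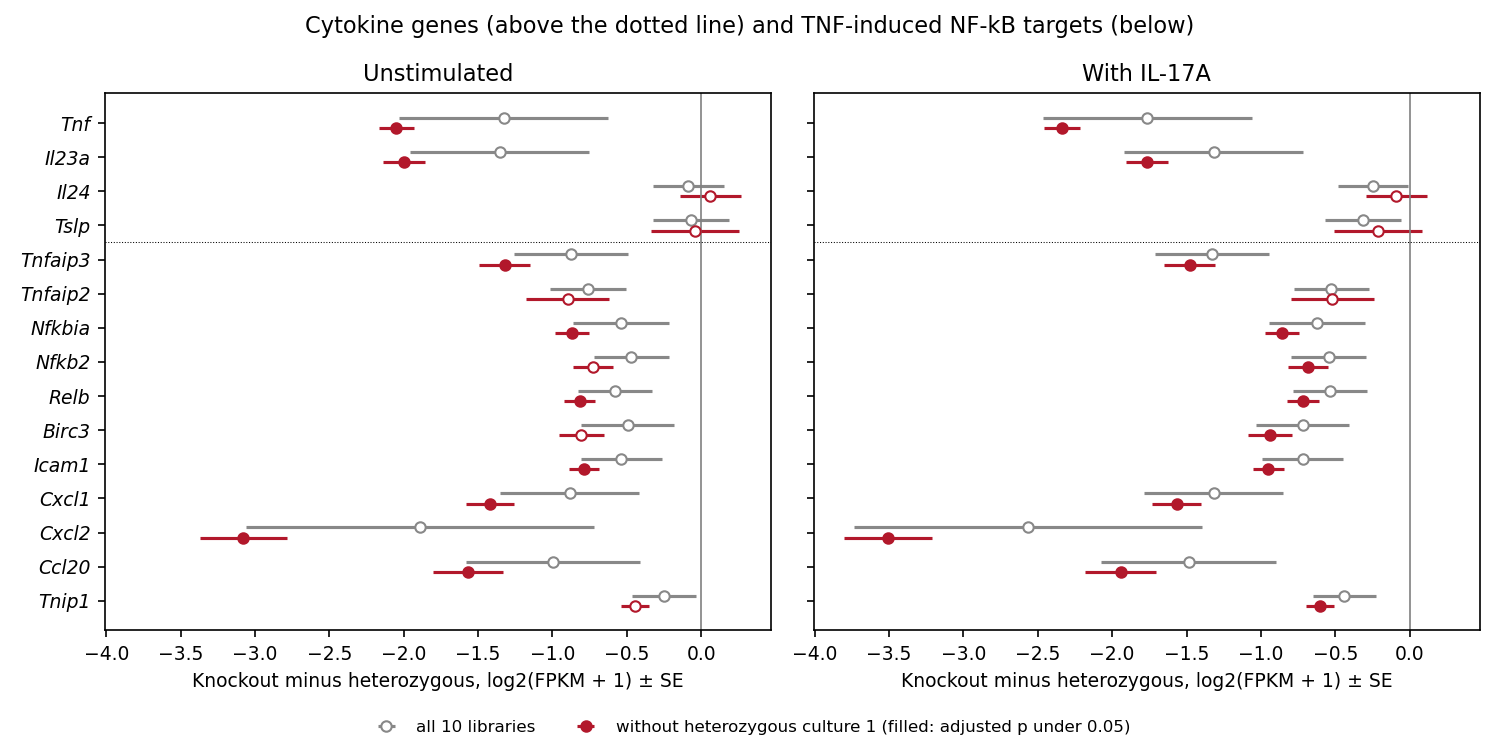
Knockout minus heterozygous difference in log2(FPKM + 1) ± SE (horizontal axis) for the 4 tested cytokine genes and the 11 tested NF-kB targets, unstimulated (left) and with IL-17A (right); grey is all 10 libraries and red is without heterozygous culture 1, filled where the adjusted p was under 0.05. Tnf and Il23a lie near -2 in red, while Il24 and Tslp lie near 0.

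Targets of STAT3, which receptors for IL-6, IL-20 and IL-24 activate, showed no called member in any comparison (9 of 10 tested). With IL-17A on average, Cebpd differed by 0.64 (limma adjusted p = 0.0619), Bcl3 by 0.53 (adjusted p = 0.273) and Il4ra by 0.13 (adjusted p = 0.769).

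Of 19 related cytokines, 9 were listed at 0 in every library, among them Il10, Il17a, Il17f, Il22 and Osm, and 4 could be tested. Il1a, encoding the keratinocyte alarm cytokine IL-1α, was the most abundant at 147 to 261 FPKM in numbers 1 to 14 and 260 to 338 FPKM in numbers 33 to 38. Without heterozygous culture 1 it was lower in knockout libraries, as were 0.664% of all genes unstimulated and 2.87% with IL-17A. Il1a differed by -0.86 unstimulated (limma adjusted p = 0.0474) and by -0.85 with IL-17A (adjusted p = 0.0310). Genotype and library number cannot be told apart there. None of the 4 was called with IL-17A on average: Lif differed by 0.28 (adjusted p = 0.432), Il1a by 0.36 (adjusted p = 0.614) and Il33 by 0.19 (adjusted p = 0.834).

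A list of other keratinocyte genes linked to psoriasis held 18 symbols, some of them alternative names of the same gene. Of these symbols 15 were matched, and 13 genes were tested. With IL-17A on average 3 of the 13 rose, against 0.149% of all genes called. They were S100a8 (0.89, limma adjusted p = 0.00444) and S100a9 (0.97, adjusted p = 0.0314), the 2 chains of calprotectin, and Lce3b (0.82, adjusted p = 0.0396), a late cornified envelope gene. When heterozygous culture 1 was left out, 0.0664% of all genes were called and of these 13 genes S100a8 alone passed (0.91, limma adjusted p = 0.0366), while S100a9 differed by 0.95 (adjusted p = 0.139) and Lce3b by 0.81 (adjusted p = 0.179). The median of the 13 was 0.42, against -0.01 for all genes. Between genotypes, without heterozygous culture 1, Il1f6, encoding IL-36α, was lower in knockout libraries, as were 0.664% of all genes unstimulated and 2.87% with IL-17A. It differed by -1.87 (limma adjusted p = 0.0254) unstimulated and by -1.88 (adjusted p = 0.0185) with IL-17A. The protease inhibitor gene Stfa1 was higher, by 1.59 (adjusted p = 0.0183) and 1.25 (adjusted p = 0.0237), as were 46 and 462 of all 12054 genes. Genotype and library number cannot be told apart in this fit.

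The genes most like each member were found by Pearson correlation of log2(FPKM + 1) over the 10 libraries. These are descriptions: the libraries pair into 5 cultures, and for Tnf and Il23a they fall into separate sets by library number, so r also carries the gap between those sets. For Tnf they were Bcl2l15 (r = 0.995), Cxcl16 (r = 0.995) and Atp1b1 (r = 0.993). Bcl2l15 was at 29.02 to 42.1 FPKM in numbers 1 to 14 and 85.6 to 116 FPKM in numbers 33 to 38. For Il23a they were Inhba (r = 0.992), Edn1 (r = 0.988) and Csf2 (r = 0.987), the last encoding the growth factor GM-CSF, at 0.575 to 5.31 and 12.6 to 24.0 FPKM. For Il24 they were Sprr2j-ps (r = 0.953), Plet1 (r = 0.909) and Il33 (r = 0.886), and for Tslp Rc3h1 (r = 0.932), Zdhhc24 (r = 0.927) and Sept11 (r = 0.913). The levels of the genes named for Il24 and Tslp overlapped between the number sets. Among the members, Il24 and Tslp correlated with each other at r = 0.851 over the 10 libraries, whereas Tnf correlated with Il24 at r = -0.15 and with Tslp at r = 0.12.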

How the data were processed

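RNA of 10 keratinocyte libraries was sequenced after poly(A) selection from 100 ng of total RNA, per the labels' protocols. The authors deposited 1 table of FPKM values; the submitters' processing notes name HISAT2, SAMtools, StringTie, DESeq2 and mm10 (the GRCm38 assembly), with no version or role, and neither the strand setting nor the annotation release is stated there. Symbols were matched for 32919 of 37991 identifiers. FPKM are not counts, so limma 3.58.1 (R 4.3.3) with a mean-variance trend was run on log2(FPKM + 1), for the 12054 genes that averaged 1 FPKM or more, two-sided, with Benjamini-Hochberg adjustment and a threshold of 0.05. A fit of 4 group means gave 5 contrasts; the averaged IL-17A response had culture as a fixed block. Same-numbered libraries of a genotype deviated together (r = 0.14 to 0.61), so the averaged response treated cultures as pairs. The 2 knockout cultures mirror each other and give 1 value of r. The 5 other contrasts took account of culture only in the alternatives with a replicate block, run with all 10 libraries. Without heterozygous culture 1, the genotype contrasts thus treated the 2 libraries of a culture as independent. Fold changes on this scale understate the change of low genes.

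Depth was estimated from 4158 single-exon genes of 300 to 3000 bases, of whose values up to 3 steps high 48.6 to 55.3% were whole to within 0.05 (10% if spread evenly), so reads were not taken as recovered and no count model was run. That estimate gives the level of 3 fragments and covers counting error only. The script was tested on simulated data. No deposited column was left out; protein sequences were not used here.

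The members and gene lists were chosen with earlier results of these data known, as was the fit without heterozygous culture 1. The text names all 8 members, every listed gene that passed in a comparison or, where none did, up to 3 with the smallest p in the averaged IL-17A response, and the 3 genes most correlated with each tested member. Alternatives were the pseudocount (0.1), the filter (0.1 FPKM, none), TPM and median-of-ratios scaling, the replicate block, library numbers 1 to 14, and leaving out libraries or cultures.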

Additional observations from a re-analysis of the deposited data

How the results depend on the processing

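No alternative called Il24 or Tslp, and every call of Tnf or Il23a came in a comparison of genotypes without heterozygous culture 1. There, 2 members were called in each condition (against 0 with all libraries), where 1.05% of all genes unstimulated and 6.7% with IL-17A were. With TPM scaling in addition, 2 were called in each, where 0.608% and 2.54% of all genes were. The fit without knockout culture 1 as well leaves 1 knockout library per condition, so only its differences are given. That fit and the one with TPM scaling in addition were added after seeing the data. The cause of these shifts was not tested. Under library numbers 1 to 14 only, the unstimulated Tnf difference turned to 0.11 and the Il23a difference between genotypes in the response to -0.36. Small differences changed sign when cultures were left out. For Il24 unstimulated these were 0.062 (without heterozygous culture 1), 0.016 (without knockout culture 1), 0.17 (without both) and 0.12 (TPM scaling and without heterozygous culture 1, called TPM below); for Tslp unstimulated 0.17 (without knockout culture 1), 0.20 (without both) and 0.014 (TPM); with IL-17A, Il24 0.053 (without both) and 0.00999 (TPM) and Tslp 0.025 (without knockout culture 1) and 0.13 (without both).

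Leaving out 1 library at a time, the IL-17A difference ran from -0.26 to 1.04 for Tnf and -0.30 to 0.79 for Il23a in heterozygous libraries, and from -0.0025 to 0.28 for Il24 and -0.27 to 0.40 for Tslp in knockout libraries. The genotype difference ran from -0.28 to 0.062 for Il24 and -0.31 to 0.17 for Tslp unstimulated, and from -0.65 to 0.025 for Tslp with IL-17A. The difference in response ran from -1.01 to 0.29 for Tnf, -0.41 to 0.68 for Il23a, -0.34 to 0.034 for Il24 and -0.58 to 0.092 for Tslp. Where 1 library of a group was left, it was assumed to vary like the other groups. No such removal changed the call of a member. Over the 19 alternatives the averaged IL-17A difference ran from 0.17 to 0.36 for Tnf and from 0.20 to 0.27 for Il24. Both genes were higher with IL-17A in 5 of 5 cultures, so leaving out libraries or cultures could not turn the sign of that difference.

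With culture as a replicate block, 0 members were called in every comparison, as without it; in heterozygous libraries the IL-17A adjusted p was then 0.534 for Tnf and 0.300 for Il24, and without the block the averaged response had adjusted p = 1.00 for all 4 members. Counts over all genes moved more: over the alternatives they ran from 0 to 6 for IL-17A in heterozygous libraries (1 as reported, 0 with the block), 0 to 10 in knockout (3, 0 with the block), 0 to 20 averaged (18; 5 without the block), 0 to 126 for genotype unstimulated (0), 0 to 808 with IL-17A (3) and 0 to 6 for the difference in response (0).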
